A study of Mus musculus with 6 samples.

Results

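The miRNAs described here are the paralogs of the miR-17~92 cluster that are made from other loci. They are mmu-miR-106b, mmu-miR-93 and mmu-miR-25 of the miR-106b~25 cluster, mmu-miR-106a, mmu-miR-18b, mmu-miR-20b and mmu-miR-363 of a cluster on chromosome X, and mmu-miR-92b, which stands alone. Members were taken by name, and every mature strand cut from either arm of a hairpin with one of these 8 names was included, which gave 13 of the 535 mature miRNAs in the counts. miR-19b-3p and miR-92a-3p were not members, because the X-linked cluster and miR-17~92 both produce them under one name.

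The data are small RNA reads of 3 nephron progenitor libraries (MNP), made from enriched nephrogenic mesenchyme, and of 3 whole kidney libraries (MWK), made to compare the small RNA content of the progenitors with that of the organ. All embryos were wild-type CD1 mice at embryonic day 15.5, and the study describes 3 biological replicates from 3 litters. Progenitors were the cells left when antibodies to CD140a, CD105, Epcam and Ter119 had removed stromal, endothelial, epithelial and erythroid cells on magnetic beads, and the study names minor contamination by renal stroma as a limit of this isolation. Whole kidney was the tissue that remained after the limited digestion that released the progenitors. RNA came from a miRNeasy Micro Kit for progenitors and a miRNeasy Mini Kit for whole kidney in the study's methods, while the sample labels give the Micro Kit for all. By the methods, kit, isolation and group cannot be told apart.

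Counts on known miRNAs, with one value per mature miRNA, came to 393951, 436113 and 333850 (MNP1, MNP2, MNP6) and to 349241, 360221 and 355848 (MWK1, MWK2, MWK6). MNP6 and MWK6 bear names that match no single labelled sample and are known by group only. Levels are in CPM, counts scaled to a common library total after TMM adjustment. TMM sets the bulk of miRNAs equal between libraries, and a global shift in miRNA amount would go unseen. A level of 3 counts, used as the floor of detection, was 6.53 to 9.44 CPM. The reads carry no molecular identifiers, and floors and count intervals cover counting error only. The paralog strands took 1.08%, 0.854% and 0.871% of the counts in the MNP libraries, in that order, and 0.794%, 0.752% and 0.889% in the MWK libraries.

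A miRNA guides Argonaute proteins to messenger RNAs that pair with its seed, the bases near its 5′ end, and strands with one seed share many targets. miR-17~92 is a polycistron induced by Myc that promotes proliferation and survival, and its deletion in nephron progenitors lowers nephron number in mice. The miR-106b~25 and X-linked clusters arose from the same ancestor by duplication. Mice without miR-106b~25 or the X-linked cluster are viable, while combined loss of miR-17~92 and miR-106b~25 is lethal in the embryo.

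All 13 strands had more than 10 counts in sum over the 6 libraries and were tested with the other miRNAs, 525 in all. miR-106a-5p, miR-18b-5p and miR-363-5p passed this filter only through whole kidney, with 4, 6 and 7 pooled MNP counts against 24, 25 and 29 for MWK. Their lower calls therefore come from strands admitted by the group where they are high. miR-92b-5p passed the filter only through nephron progenitors, with 18 pooled counts against 5. With edgeR's quasi-likelihood test and a Benjamini-Hochberg adjusted p of at most 0.05, 1 of the 13 was higher in nephron progenitors, 5 were lower and 7 did not pass. Among all miRNAs tested, 192 passed (36.6%), 102 of them higher (19.4%) and 90 lower (17.1%). The 5 lower strands were the 5 strands of the X-linked cluster, and the higher strand was miR-25-5p. The median log2 fold change was -0.20 over the 13 strands and -0.012 over all miRNAs. By locus the median was 0.018 for the 6 strands of miR-106b~25 and -2.31 for the 5 of the X-linked cluster. All 3 nephron progenitor libraries lay below all 3 whole kidney libraries for 6 of the 13 strands, against 23.2% of all miRNAs, and above them for 1, against 23.4% of all miRNAs.

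**Figure D1:**
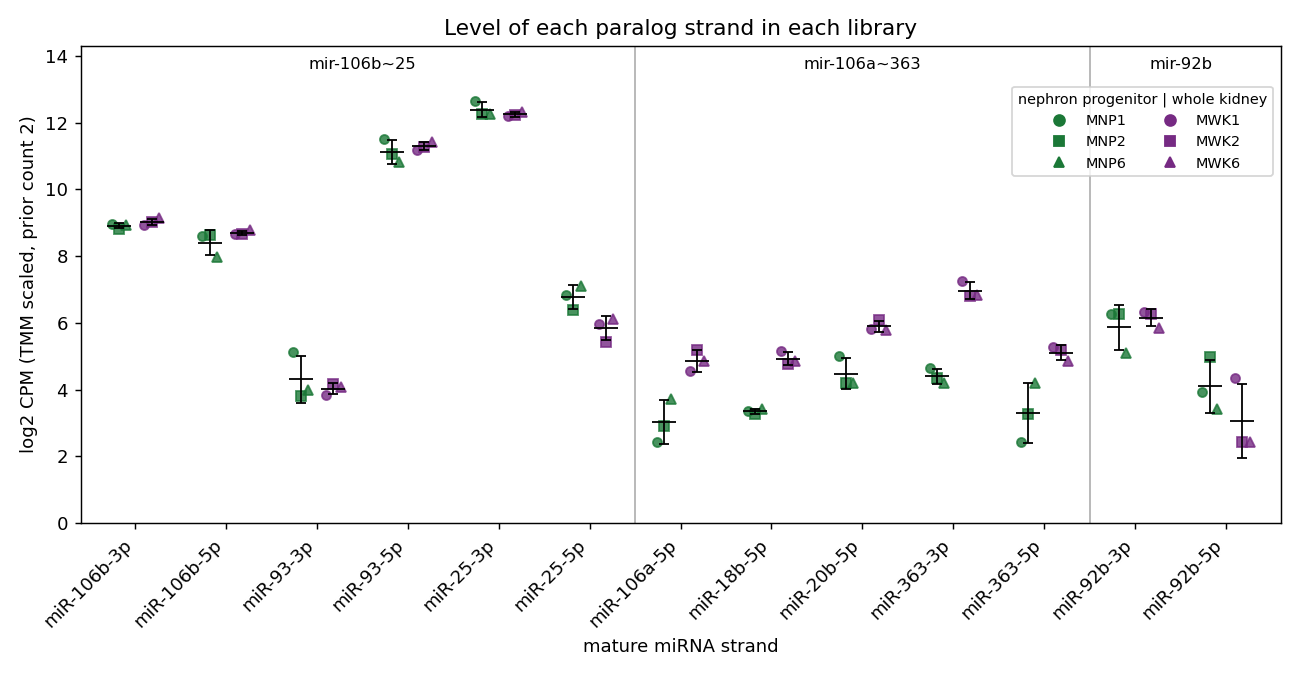
Level of each of the 13 paralog strands (x axis) in each library as log2 CPM with a prior count of 2 (y axis); colours mark the group, symbols the library, and black bars the mean ± SD of 3 libraries. The 5 strands of the X-linked cluster lie lower in every nephron progenitor library than in any whole kidney library, and points near 2.4 hold no counts.

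RefSeq (GRCm38.p6) holds the mature sequence of 12 of the 13 strands, all but miR-363-5p. Of these, 8 fall into 3 seed groups with their miR-17~92 relatives, and the sequences are printed to show that each seed group joins paralogs of the X-linked cluster that were lower in nephron progenitors with strands of other loci. Sequences run 5′ to 3′ and capitals mark the seed, bases 2 to 8.
miR-17-5p: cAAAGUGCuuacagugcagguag
miR-20a-5p: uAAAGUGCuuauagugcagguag
miR-93-5p: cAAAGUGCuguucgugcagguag
miR-106b-5p: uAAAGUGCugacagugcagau
miR-106a-5p: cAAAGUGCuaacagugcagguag
miR-20b-5p: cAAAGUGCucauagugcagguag
miR-18a-5p: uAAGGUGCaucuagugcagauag
miR-18b-5p: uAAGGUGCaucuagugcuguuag
miR-92a-3p: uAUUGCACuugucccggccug
miR-25-3p: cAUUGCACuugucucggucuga
miR-363-3p: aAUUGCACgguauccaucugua
miR-92b-3p: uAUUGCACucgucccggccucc
miR-25-5p: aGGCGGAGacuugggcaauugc
The seed AAAGUGC is that of miR-17-5p and is shared by miR-20a-5p, miR-93-5p, miR-106b-5p, miR-106a-5p and miR-20b-5p. AAGGUGC is shared by miR-18a-5p and miR-18b-5p, and AUUGCAC by miR-92a-3p, miR-25-3p, miR-363-3p and miR-92b-3p. miR-25-5p, the opposite arm of the miR-25 hairpin, has the seed GGCGGAG, and it belongs to none of these groups, nor do miR-106b-3p, miR-93-3p and miR-92b-5p.

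Some paralogs differ from their relative by few bases. With positions counted from 1 at the 5′ end, miR-106a-5p differs from miR-17-5p by U10A, where the base of miR-17-5p stands first. miR-18b-5p differs from miR-18a-5p by A18U and A20U, and miR-20b-5p differs from miR-20a-5p by U1C and U10C, each with the base of the miR-17~92 strand first. Reads of miR-106a-5p with 1 error could be assigned to miR-17-5p or the reverse, and how the authors' counting divides such reads was not tested. Counts of these 3 strands are uncertain to that extent. miR-20b-5p is also 2 bases from both miR-17-5p and miR-106a-5p. Other paralogs are not far from a relative either. miR-93-5p is 3 edits from miR-17-5p and miR-20b-5p, and miR-92b-3p is 3 edits from miR-92a-3p. Whether reads of these were divided correctly was not tested. miR-363-3p is 7 edits from the nearest other sequence, miR-25-3p, among the 440 miRNAs in the counts that RefSeq holds.

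In the mm10 coordinates of the deposited table the 3 hairpins of miR-106b~25 lie on the minus strand of chromosome 5 within 498 bases. These are mir-106b (chr5:138165737-138165818), mir-93 (chr5:138165523-138165610) and mir-25 (chr5:138165321-138165404). In GENCODE M21, which uses the same assembly, all 3 lie on the same strand in an intron of Mcm7, the gene for a subunit of the replicative helicase, and mir-93 and mir-25 also overlap the first exon of a shorter transcript of that gene. The 4 hairpins unique to the X-linked cluster lie on the minus strand of chromosome X within 875 bases. They are mir-106a (chrX:52742503-52742567), mir-18b (chrX:52742331-52742413), mir-20b (chrX:52742113-52742192) and mir-363 (chrX:52741693-52741767), and the hairpins mir-19b-2 and mir-92a-2 lie between mir-20b and mir-363. mir-106a overlaps an exon of the noncoding transcript Kis2 on the same strand, and the others lie past its 3′ end, outside annotated genes other than the miRNAs. mir-92b (chr3:89227116-89227198) is on the minus strand of chromosome 3, 28 bases from Mtx1 and outside it.

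**Figure D2:**
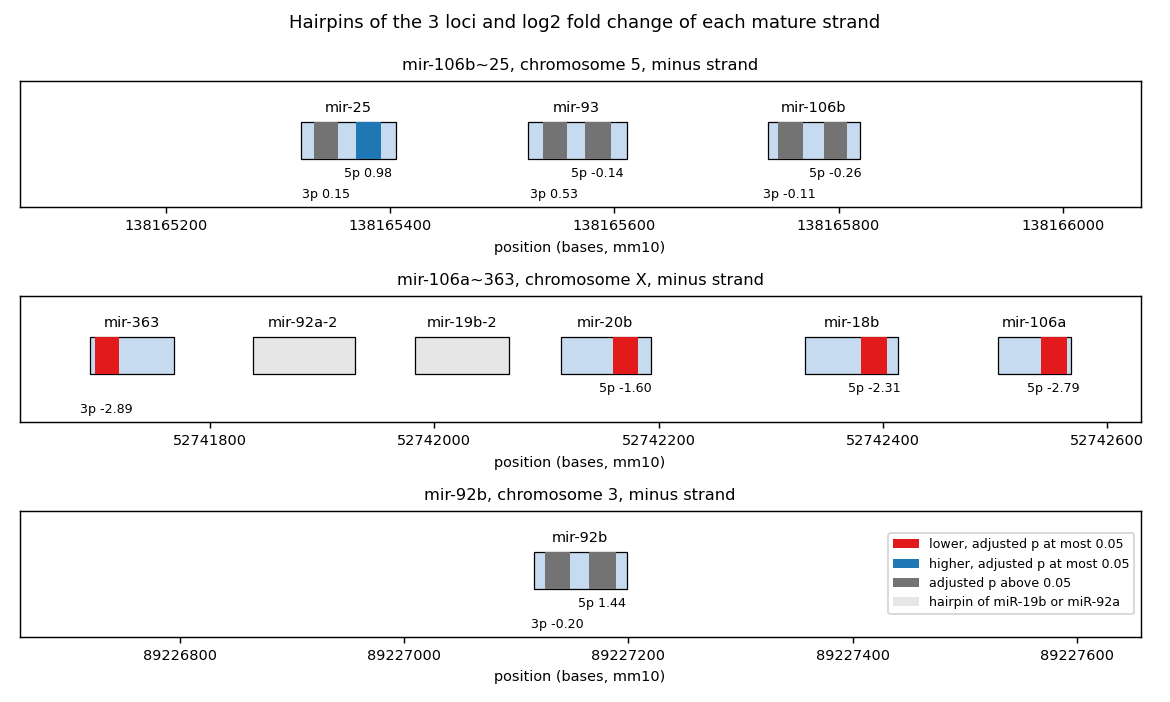
Hairpins of the 3 loci drawn to scale along mm10 positions in bases (x axis), with mature strands from RefSeq as inner boxes and their log2 fold change, nephron progenitor over whole kidney, below. The 4 strands drawn on chromosome X have log2 fold changes of -2.89, -1.60, -2.31 and -2.79, while on chromosome 5 only miR-25-5p, at 0.98, is past the threshold.

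The miR-106b~25 cluster supplied nearly all of the paralog reads, and its main strands did not pass the threshold. miR-25-3p, of the miR-92 seed group, was the most abundant paralog, at 6390.1 (MNP1), 4919.9 (MNP2) and 4881 CPM (MNP6), against 4689.9 (MWK1), 4759.9 (MWK2) and 5138 CPM (MWK6). MNP1 was highest and the ranges of the groups overlapped. The means were 5397 ± 860.2 CPM for MNP against 4862 ± 241 CPM for MWK (SD, n = 3 libraries each, as for all means below), with a log2 fold change of 0.15 ± 0.16 (SE; adjusted p = 0.53) in edgeR's quasi-likelihood test. miR-93-5p, the leading paralog with the miR-17 seed, was at 2937 (MNP1), 2126 (MNP2) and 1799.7 CPM (MNP6), against 2329.9 (MWK1), 2474 (MWK2) and 2762 CPM (MWK6). The highest and the lowest of the 6 libraries were both nephron progenitor libraries. Its log2 fold change was -0.14 ± 0.19 (SE; adjusted p = 0.64) in the same edgeR quasi-likelihood test. This is less than the replicates differ among themselves. Its sign was reversed under library totals (0.053), which shifted the median of all miRNAs by 0.20.

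miR-106b-5p, which also has the miR-17 seed, was at 386 (MNP1), 394 (MNP2) and 244 CPM (MNP6), against 397 (MWK1), 399.8 (MWK2) and 433 CPM (MWK6). MNP6 was low, while MNP1 and MNP2 lay just under the lowest whole kidney library, so the groups did not overlap but came within a few CPM of each other. The log2 fold change was -0.26 ± 0.23 (SE; adjusted p = 0.44) in edgeR's quasi-likelihood test and -0.11 without MNP6 (adjusted p = 0.72). miR-106b-3p, from the other arm of that hairpin, was at 495 (MNP1), 449 (MNP2) and 489 CPM (MNP6), against 481 (MWK1), 513 (MWK2) and 555 CPM (MWK6). Its groups overlapped, with a log2 fold change of -0.11 ± 0.19 (SE; adjusted p = 0.70) in edgeR's quasi-likelihood test, reversed in sign under library totals (0.091). miR-93-3p was near the floor, with 12, 4 and 4 counts in the nephron progenitor libraries and 3, 4 and 4 in the whole kidney libraries. MNP1 was the only library clearly above the floor. Its log2 fold change was 0.53 ± 0.61 (SE; adjusted p = 0.57) in edgeR's quasi-likelihood test and -0.20 without MNP1 (adjusted p = 0.86).

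miR-25-5p, the minor arm of the miR-25 hairpin, was the one paralog strand higher in nephron progenitors. It was at 108 (MNP1), 78.4 (MNP2) and 131 CPM (MNP6), against 57.1 (MWK1), 37.8 (MWK2) and 64.3 CPM (MWK6), from 44, 36 and 50 counts in the nephron progenitor libraries and 19, 12 and 22 in the whole kidney libraries. Every nephron progenitor library was above every whole kidney library, by the least margin between MNP2 and MWK6. The log2 fold change was 0.98 ± 0.30 (SE; adjusted p = 0.021) in edgeR's quasi-likelihood test. The call depended on single libraries. The adjusted p was 0.069 without MNP6, 0.066 without MWK1 and 0.11 without MWK2, with log2 fold changes of 0.76, 1.04 and 0.79 in the same edgeR quasi-likelihood test. miR-25-3p, cut from the same hairpin, was not past the threshold, and the difference between the arms was compared within each library.

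Counts of miR-25-5p were 1.69% (MNP1), 1.59% (MNP2) and 2.69% (MNP6), against 1.22% (MWK1), 0.794% (MWK2) and 1.25% (MWK6) relative to miR-25-3p. The minor arm thus held a larger share in each nephron progenitor library than in any whole kidney library, with MNP6 highest. The mean log2 ratio of the arms was -5.67 ± 0.41 for MNP against -6.51 ± 0.35 for MWK, a difference of 0.84 (exact two-sided permutation test, p = 0.1). That is the smallest p that 3 against 3 libraries allow, so no ratio here can pass 0.05. For the miR-106b hairpin the 5p counts were 78.1% (MNP1), 87.9% (MNP2) and 50% (MNP6), against 82.5% (MWK1), 77.9% (MWK2) and 77.9% (MWK6) relative to the 3p counts. MNP6 was lowest, and the groups overlapped, with a difference of -0.18 (exact permutation p = 0.9). The other 3 tested hairpins also overlapped between groups in the exact permutation test, with differences of -0.46 (p = 0.3) for miR-93, 0.097 (p = 0.9) for miR-363 and 2.21 (p = 0.2) for miR-92b. With a pseudocount of 5 the exact permutation test gave -0.21 (p = 0.4), 0.89 (p = 0.2) and 0.67 (p = 0.2). miR-92b-5p had 0 counts in MWK2 and MWK6, where the pseudocount sets the ratio. With each library left out the differences ran from -0.74 to -0.15 for miR-93 and 1.60 to 3.27 for miR-92b.

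The X-linked cluster of miR-106a, miR-18b, miR-20b and miR-363 was scarce in both groups and lower in nephron progenitors in each of its 5 strands. miR-363-3p, its member of the miR-92 seed group, was the most abundant in whole kidney. In nephron progenitors its mean of 16 CPM lay just under the 17.8 CPM of miR-20b-5p. miR-363-3p had 8, 7 and 5 counts in the nephron progenitor libraries and 49, 34 and 37 in the whole kidney libraries. Its level was 19.7 (MNP1), 15.2 (MNP2) and 13.1 CPM (MNP6), against 147 (MWK1), 107 (MWK2) and 108 CPM (MWK6). The groups were far apart, with a gap much wider than the spread within either. The log2 fold change was -2.89 ± 0.31 (SE; adjusted p = 1.4e-05) in edgeR's quasi-likelihood test, which ranked it 18 of the 525 miRNAs by p. Over all alternatives its adjusted p was 4.8e-08 to 0.0057. In bulk RNA, fewer cells that contain a miRNA and less of it per cell cannot be told apart.

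miR-20b-5p, which has the miR-17 seed, had 11, 6 and 5 counts in the nephron progenitor libraries and 17, 20 and 17 in the whole kidney libraries. Its levels were 27.1, 13.1 and 13.1 CPM in the nephron progenitor libraries and 51.1, 63 and 49.7 CPM in the whole kidney libraries, in the same order. MNP1 was the highest progenitor library and still lay below the lowest whole kidney library. The means were 17.8 ± 8.07 CPM for MNP against 54.6 ± 7.29 CPM for MWK, and the log2 fold change was -1.60 ± 0.37 (SE; adjusted p = 0.0041) in edgeR's quasi-likelihood test. miR-18b-5p, the only paralog with the miR-18 seed, had 2, 2 and 2 counts in the nephron progenitor libraries and 10, 7 and 8 in the whole kidney libraries. Each nephron progenitor library was under the floor of 3 counts. The pooled counts, 6 against 25, gave a whole kidney to nephron progenitor ratio of 5.23 (95% exact interval 2.09 to 15.6) after scaling, and edgeR's quasi-likelihood test gave a log2 fold change of -2.31 ± 0.54 (SE; adjusted p = 0.0042).

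miR-106a-5p, 1 base from miR-17-5p, had 0, 1 and 3 counts in the nephron progenitor libraries and 6, 10 and 8 in the whole kidney libraries. All nephron progenitor libraries were at or under the floor, and MNP6 held most of their reads. The whole kidney to nephron progenitor ratio of pooled counts, 24 against 4, was 7.53 (95% exact interval 2.59 to 29.9). edgeR's quasi-likelihood test gave a log2 fold change of -2.79 ± 0.73 (SE; adjusted p = 0.0084). Leaving out MNP1 or MNP6, which hold the lowest and the highest progenitor count, gave -2.25 and -4.07, and all 6 such fits were past the threshold (adjusted p 0.0047 to 0.049). miR-363-5p, the minor arm of miR-363, had 0, 2 and 5 counts in the nephron progenitor libraries and 11, 10 and 8 in the whole kidney libraries. Its progenitor libraries differed among themselves but stayed below whole kidney. The pooled ratio of whole kidney to nephron progenitor was 5.2 (95% exact interval 2.23 to 14.1), and the log2 fold change was -2.31 ± 0.66 (SE; adjusted p = 0.015) in edgeR's quasi-likelihood test. The adjusted p was 0.052 without MNP2, 0.066 without MWK1 and 0.057 without MWK2, each above 0.05, with log2 fold changes of -2.15, -2.21 and -2.26. Without MNP1 it was -1.76 and without MNP6 -3.52.

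miR-92b, the stand-alone member with the miR-92 seed, showed no difference past the threshold. miR-92b-3p was at 71.4 (MNP1), 71.9 (MNP2) and 28.9 CPM (MNP6), against 75.2 (MWK1), 72.4 (MWK2) and 52.6 CPM (MWK6). MNP6 was the lowest library of its group and MWK6 of the other, and the ranges overlapped. The means were 57.4 ± 24.7 CPM for MNP against 66.7 ± 12.3 CPM for MWK, with a log2 fold change of -0.20 ± 0.34 (SE; adjusted p = 0.71) in edgeR's quasi-likelihood test, and 0.068 without MNP6. miR-92b-5p had 4, 12 and 2 counts in the nephron progenitor libraries and 5, 0 and 0 in the whole kidney libraries. MWK1 was the only whole kidney library with a read of it, and MNP2 held most of the progenitor reads. The log2 fold change was 1.44 ± 0.99 (SE; adjusted p = 0.31) in edgeR's quasi-likelihood test and 0.54 without MNP2 (adjusted p = 0.79). Without MWK1 the remaining whole kidney libraries are both at 0, and the adjusted p was then 0.049, over a range of 0.049 to 0.79 across the alternatives.

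**Figure D3:**
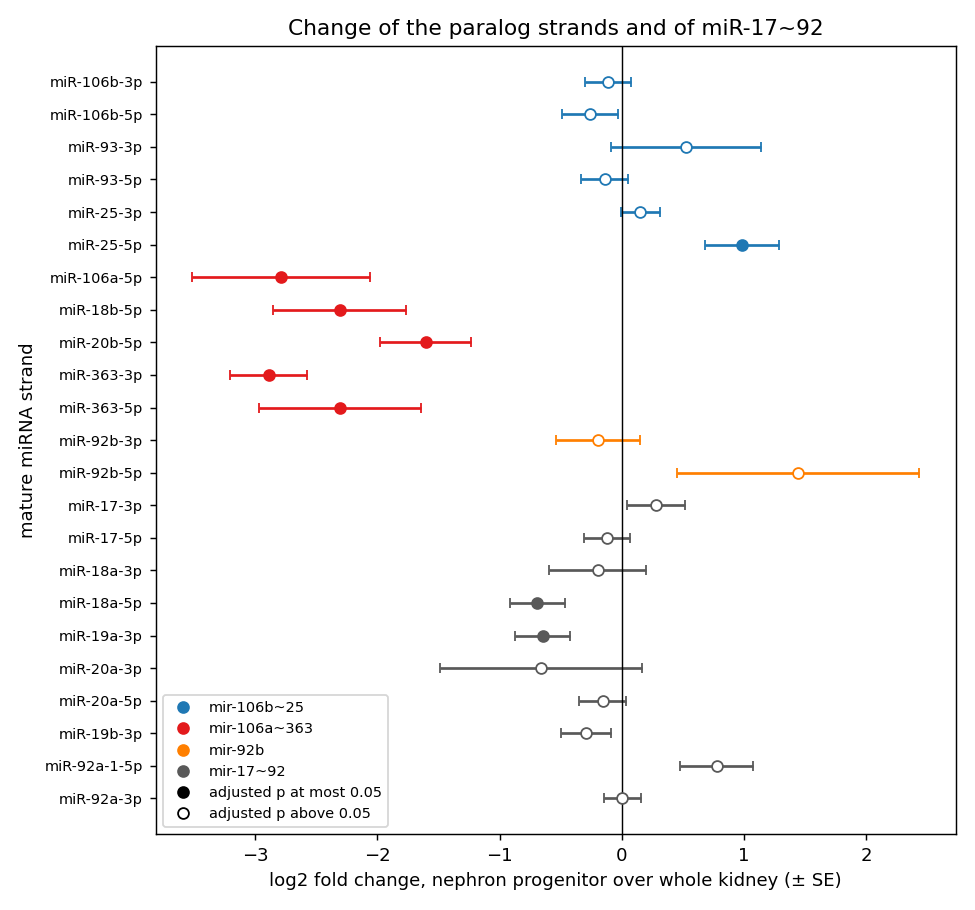
Log2 fold change of nephron progenitor over whole kidney (x axis) for the 13 paralog strands and the 10 strands of miR-17~92 (y axis). Bars are ± SE, derived from the F statistic of edgeR's quasi-likelihood test. Filled points have an adjusted p of at most 0.05 in that test. The 5 strands of the X-linked cluster lie between -2.89 and -1.60, below every other strand plotted.

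Levels summed over the strands of a locus, which were not tested, give the order of the loci. miR-106b~25 summed to 10346 (MNP1), 7975 (MNP2) and 7556 CPM (MNP6), against 7964 (MWK1), 8198 (MWK2) and 8963 CPM (MWK6). The means were 8626 ± 1504 CPM for MNP against 8375 ± 523 CPM for MWK, a log2 ratio of 0.043 that turned to -0.11 without MNP1. The X-linked cluster summed to 51.7 (MNP1), 39.2 (MNP2) and 52.5 CPM (MNP6), against 279.6 (MWK1), 255 (MWK2) and 228 CPM (MWK6). The nephron progenitor mean was 18.8% of the whole kidney mean, 47.8 ± 7.47 CPM for MNP against 254 ± 25.8 CPM for MWK, a log2 ratio of -2.41. miR-92b summed to 81.2 (MNP1), 98 (MNP2) and 34.2 CPM (MNP6), against 90.2 (MWK1), 72.4 (MWK2) and 52.6 CPM (MWK6), with a log2 ratio of -0.012 that ran from -0.31 to 0.32 with each library left out. In nephron progenitors miR-92b lay above the X-linked cluster in MNP1 and MNP2 and below it in MNP6. In each whole kidney library the X-linked cluster lay well above miR-92b. In both groups miR-106b~25 lay far above them and held 95.6% to 98.9% of the paralog CPM in a library. The share of the X-linked cluster was 0.493% (MNP1), 0.483% (MNP2) and 0.688% (MNP6), against 3.35% (MWK1), 2.99% (MWK2) and 2.47% (MWK6). Since 1 read covers a whole strand of 21 to 24 bases, no length scaling was applied in comparing levels.

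Seed groups were summed over the miRNAs with a RefSeq sequence, 440 of the 535. The 6 strands with the seed AAAGUGC summed to 12978 ± 3554 CPM for MNP against 14491 ± 1006 CPM for MWK. The 4 paralogs among them made up 20.5% ± 0.589 of the group's CPM for MNP against 20.8% ± 0.907 for MWK, nearly all of it from miR-93-5p and miR-106b-5p. The X-linked miR-106a-5p and miR-20b-5p together made up 0.166% ± 0.0431 of the group's CPM for MNP against 0.548% ± 0.121 for MWK. So the share of the paralogs was alike in both groups while that of the X-linked pair was smaller in each nephron progenitor library than in any whole kidney library. The seed AUUGCAC, which miR-32-5p also has, summed to 18571 ± 2859 CPM for MNP against 18371 ± 1447 CPM for MWK over 5 strands. miR-25-3p made up 29.1% ± 0.797 of the group's CPM for MNP against 26.5% ± 0.844 for MWK, and miR-363-3p made up 0.086% ± 0.0089 of the group's CPM for MNP against 0.663% ± 0.153 for MWK. For AAGGUGC, miR-18b-5p made up 2.06% (MNP1), 2.67% (MNP2) and 2.9% (MNP6), against 8.62% (MWK1), 7.22% (MWK2) and 6.9% (MWK6), and miR-18a-5p the rest. These shares were computed within a library and do not depend on its scaling.

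Each paralog was set against its miR-17~92 homolog by counts in the same library, for 8 pairs. Counts of miR-93-5p relative to miR-17-5p were 167% (MNP1), 164% (MNP2) and 153% (MNP6), against 157% (MWK1), 165% (MWK2) and 170.3% (MWK6). The ratio was nearly constant, and the difference of its mean log2 between groups was -0.024 (exact two-sided permutation test, p = 0.6). Counts of miR-106b-5p relative to miR-17-5p were 22% (MNP1), 30.4% (MNP2) and 20.8% (MNP6), against 26.7% (MWK1), 26.7% (MWK2) and 26.7% (MWK6). Its ratio was higher in MNP2 and lower in MNP1 and MNP6 than in whole kidney, where the libraries were almost equal, and the groups differed by -0.15 (exact two-sided permutation test, p = 0.4). Counts of miR-25-3p relative to miR-92a-3p were 42.2% (MNP1), 43.3% (MNP2) and 39.6% (MNP6), against 38% (MWK1), 39.5% (MWK2) and 35.8% (MWK6). Each nephron progenitor library was above each whole kidney library by a small margin, with a difference of 0.14 (exact two-sided permutation test, p = 0.1). Counts of miR-92b-3p relative to miR-92a-3p were 0.471% (MNP1), 0.633% (MNP2) and 0.234% (MNP6), against 0.608% (MWK1), 0.6% (MWK2) and 0.367% (MWK6), and the groups overlapped, with a difference of -0.31 (exact two-sided permutation test, p = 0.7).

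The X-linked paralogs were a small fraction of their homologs and a smaller one in nephron progenitors. Counts of miR-363-3p relative to miR-92a-3p were 0.13% (MNP1), 0.134% (MNP2) and 0.107% (MNP6), against 1.19% (MWK1), 0.887% (MWK2) and 0.754% (MWK6). Every progenitor library was below every whole kidney library, and the mean log2 ratio differed by -2.83 (exact two-sided permutation test, p = 0.1). Counts of miR-20b-5p relative to miR-20a-5p were 0.23% (MNP1), 0.158% (MNP2) and 0.196% (MNP6), against 0.52% (MWK1), 0.68% (MWK2) and 0.462% (MWK6), a difference of -1.44 (exact two-sided permutation test, p = 0.1). Counts of miR-18b-5p relative to miR-18a-5p were 2.11% (MNP1), 2.74% (MNP2) and 2.99% (MNP6), against 9.43% (MWK1), 7.78% (MWK2) and 7.41% (MWK6), a difference of -1.43 (exact two-sided permutation test, p = 0.1). In both pairs the groups did not overlap. Counts of miR-106a-5p relative to miR-17-5p were 0% (MNP1), 0.168% (MNP2) and 0.671% (MNP6), against 1.21% (MWK1), 2.1% (MWK2) and 1.44% (MWK6), a difference of -2.78 (exact two-sided permutation test, p = 0.1), which was -1.89 without MNP1 and -3.63 without MNP6. The log2 ratios include a pseudocount of 0.5, and with a pseudocount of 5 the differences were -1.23 for miR-106a-5p and -0.56 for miR-18b-5p, whose counts are lowest. Of the 8 pairs, 5 had groups that did not overlap, and each of these had the smallest p the design allows. Among the levels of all miRNAs, 23.2% had progenitor libraries wholly below and 23.4% wholly above whole kidney. Those shares are for single levels, and no matching share for ratios of other pairs is given. With the lowest row kept for each miRNA, miR-25-3p over miR-92a-3p overlapped, at 0.12 (exact permutation p = 0.3).

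Of the 10 strands of miR-17~92 itself, 2 were lower in nephron progenitors and 0 higher in edgeR's quasi-likelihood test, beside 17.1% and 19.4% of all miRNAs, with a median log2 fold change of -0.18. miR-17-5p, miR-20a-5p and miR-92a-3p did not pass. miR-17-5p was at 1409 ± 306 CPM for MNP against 1535 ± 75.4 CPM for MWK, log2 fold change -0.12 ± 0.19 (SE; adjusted p = 0.67). miR-20a-5p was at 8918 ± 2601 CPM for MNP against 9945 ± 746 CPM for MWK, log2 fold change -0.16 ± 0.19 (SE; adjusted p = 0.59). miR-92a-3p was at 12949 ± 1973 CPM for MNP against 12918 ± 1238 CPM for MWK, log2 fold change 0.0034 ± 0.15 (SE; adjusted p = 0.99). The lower strands were miR-18a-5p, the homolog of miR-18b-5p, and miR-19a-3p. miR-18a-5p was at 189.6 ± 39.2 CPM for MNP against 306 ± 19.6 CPM for MWK, log2 fold change -0.69 ± 0.22 (SE; adjusted p = 0.027). miR-19a-3p, which shares its seed GUGCAAA with miR-19b-3p, was at 119.6 ± 16 CPM for MNP against 188 ± 8.65 CPM for MWK, log2 fold change -0.65 ± 0.23 (SE; adjusted p = 0.038). The fits were again edgeR's quasi-likelihood test, and these results hung on single libraries. miR-18a-5p did not pass without MNP2, MWK1, MWK2 or MWK6, at log2 fold changes of -0.60, -0.66, -0.75 and -0.66 (adjusted p = 0.11, 0.10, 0.057 and 0.072). miR-19a-3p did not pass without MNP2, MWK1, MWK2 or MWK6, at log2 fold changes of -0.63, -0.61, -0.65 and -0.68 (adjusted p = 0.10, 0.12, 0.10 and 0.06). miR-20a-5p passed without MNP1, at -0.40 (adjusted p = 0.029). Other processing choices also ended these calls. Neither strand passed under library totals, at -0.49 and -0.45 (adjusted p = 0.11 and 0.14), or in the 4 numbered libraries, with the replicate block, at -0.66 and -0.65 (adjusted p = 0.0525 and 0.0505), or without it, at -0.66 and -0.65 (adjusted p = 0.104 and 0.0582). miR-19a-3p did not pass with DESeq2, at -0.63 (adjusted p = 0.104), or with counts summed over rows, at -0.61 (adjusted p = 0.0556). Under library totals miR-17-5p and miR-20a-5p were reversed in sign, at 0.072 and 0.033.

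The X-linked cluster also encodes miR-19b-3p and miR-92a-3p, which the deposited table lists both for the X-linked hairpin and for that of miR-17~92. miR-92a-3p had 624 (MNP1), 482 (MNP2) and 449 counts (MNP6), against 404 (MWK1), 392 (MWK2) and 418 counts (MWK6) on the X-linked mir-92a-2. These were 8.52% to 10.2% of its counts on mir-92a-1 in every library, and they did not follow the lower level of miR-363-3p, miR-20b-5p, miR-18b-5p and miR-106a-5p in nephron progenitors. miR-19b-3p had nearly equal counts on both hairpins, with those on mir-19b-2 at 100% to 102% of those on mir-19b-1. Both loci produce these strands under one name, and what set the counts of miR-92a-3p on its 2 hairpins apart was not tested. The counts of these strands were therefore not used as a separate measure of the X-linked cluster.

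Most markers of epithelial, endothelial and erythroid cells were also lower in nephron progenitors, and their part in the lower level of the X-linked cluster was not tested. The epithelial tubule markers summed to 226 (MNP1), 385 (MNP2) and 89.3 CPM (MNP6), against 23969.6 (MWK1), 25408 (MWK2) and 21859.7 CPM (MWK6). In edgeR's quasi-likelihood test 7 of 7 strands were lower and 0 higher in nephron progenitors, beside 17.1% and 19.4% of all miRNAs. Of these strands, miR-200b-5p and miR-141-3p were at 0 counts in every MNP library. The most abundant was miR-200a-3p, at 105 ± 67.5 CPM for MNP against 12443 ± 1196 CPM for MWK. The endothelial markers summed to 418 (MNP1), 595 (MNP2) and 578 CPM (MNP6), against 20128 (MWK1), 21306 (MWK2) and 18172 CPM (MWK6). Here 2 of 2 strands were lower and 0 higher in nephron progenitors, beside the same shares of all miRNAs. Among them miR-126a-3p was the most abundant, at 501 ± 91.1 CPM for MNP against 18828 ± 1576 CPM for MWK. The erythroid markers summed to 549 (MNP1), 405 (MNP2) and 271 CPM (MNP6), against 1858 (MWK1), 1851 (MWK2) and 953 CPM (MWK6). Of these, 5 of 7 strands were lower and 0 higher in nephron progenitors, again beside the same shares of all miRNAs. The most abundant was miR-451a, at 100.2 ± 38.8 CPM for MNP against 569.8 ± 177 CPM for MWK. Beside these, the sum over the X-linked cluster in nephron progenitors was 18.8% of that in whole kidney, against 0.984% for the epithelial, 2.67% for the endothelial, 26.3% for the erythroid, 62.5% for the stromal and 144% for the leukocyte markers.

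The stromal and smooth muscle markers summed to 44005 (MNP1), 58191 (MNP2) and 59507 CPM (MNP6), against 83077 (MWK1), 95619 (MWK2) and 80221 CPM (MWK6). Of these, 2 of 10 strands were lower and 1 higher in nephron progenitors, beside 17.1% and 19.4% of all miRNAs. Among them miR-143-3p was the most abundant, at 24989.8 ± 3454 CPM for MNP against 62802 ± 7267 CPM for MWK, while the median log2 fold change of the 10 was 0.20, with 4 below 0. The leukocyte markers summed to 135 (MNP1), 152 (MNP2) and 70.9 CPM (MNP6), against 87.2 (MWK1), 101 (MWK2) and 61.4 CPM (MWK6), where 0 of 5 strands were lower and 1 higher in nephron progenitors, beside the same shares of all miRNAs. There miR-142a-3p was the most abundant, at 49.8 ± 29.6 CPM for MNP against 30.3 ± 3.54 CPM for MWK, and did not pass (edgeR's quasi-likelihood test, adjusted p = 0.26). The log2 fold changes of the 5 ran from -0.20 to 5.54, the highest among all miRNAs tested, with a median of 0.74. By the sums above, the strand at 5.54 had a mean level under the floor of detection in whole kidney, so its fold is uncertain. Apart from miR-200b-5p and miR-141-3p, no marker strand was at 0 in all 3 nephron progenitor libraries. No miRNA marker of nephron progenitors was used. The values here bear on that label only through markers of other cells, and those of stroma and leukocytes were mostly not lower. The study reports enrichment of progenitor transcripts in the isolate by qPCR, which was not reanalysed. After the values of the X-linked cluster had been seen, the other strands encoded only on chromosome X were counted. Of these, 8 of 49 were lower (17.1% of all miRNAs), 3 higher (19.4% of all miRNAs) and 38 did not pass. Their median log2 fold change was -0.17. The 5 lower strands of the X-linked cluster come from 4 hairpins within 875 bases and are not separate observations. Whether the chromosome had a part in their lower level was not tested.

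The miRNAs outside both clusters whose log2 CPM over the 6 libraries was most like that of an abundant paralog were sought among 271 with a mean of at least 50 CPM. For miR-93-5p they were miR-3535 (r = 0.98), miR-181c-3p (r = 0.93) and miR-10b-3p (r = 0.92). For miR-106b-5p they were miR-340-5p (r = 0.98), miR-10b-3p (r = 0.95) and miR-6239 (r = 0.94). miR-10b-3p was near both. For miR-25-3p they were miR-130b-5p (r = 0.93), miR-423-5p (r = 0.78) and miR-181c-3p (r = 0.77), and for miR-92b-3p they were let-7f-5p (r = 0.95), miR-101a-3p (r = 0.94) and miR-101c (r = 0.94). Of the miR-17~92 strands, left out of this search, miR-17-5p (r = 0.99) and miR-20a-5p (r = 0.98) were like miR-93-5p. With miR-92a-3p the correlation of miR-25-3p was 0.81. With miR-20a-5p that of miR-106b-5p was 0.80 and that of miR-92b-3p 0.67. These Pearson correlations describe 6 libraries that share their groups, depth and preparation, and the highest of many are named.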

How the data were processed

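The deposited table of miRNA counts from 3 nephron progenitor and 3 whole kidney libraries was used. The authors trimmed reads with BBDuk, aligned them to mm10 with Bowtie2 2.2.3 and quantified known miRNAs with miRDeep2. The expected counts for 792 pairs of mature miRNA and precursor were deposited by the authors without normalization. Counts had been planned for, 3 rows hold fractions, and all were rounded. The highest row of a mature miRNA was kept in each library. miRNAs with more than 10 counts in sum (525) were scaled by TMM and tested with edgeR 4.0.16 (R 4.3.3) and Benjamini-Hochberg adjustment at 0.05, a step tried first on simulated data. Ratios used a pseudocount of 0.5 and exact permutation tests (scipy 1.17.1). Alternatives were DESeq2 1.42.0, limma-voom (limma 3.58.1), other scalings, filters and row rules, a replicate block and leaving out each library. Replicate pairs differed by more than counting noise, and nephron progenitor pairs more than whole kidney pairs. The chi-square per degree of freedom was 16.8 to 43.9 for MNP pairs and 2.47 to 6.91 for MWK pairs. The text names every member strand and miR-17~92 strands with paralogs or past the threshold. It also names the 3 miRNAs outside the miR-17~92 and paralog clusters that were most like each of 4 paralogs. Members and lists were chosen with earlier results of these data known. Sequences are from RefSeq, genes from GENCODE M21. MNP6 and MWK6 entered without a replicate number.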

Additional observations from a re-analysis of the deposited data

How the results depend on the processing

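The 5 lower strands of the X-linked cluster kept their direction in every fit that tested them. All 6 calls among the paralogs stayed past the threshold with DESeq2, limma-voom, DESeq2's size factors, library totals, scaling without the 10 most abundant miRNAs, no filter and the other row rules. Requiring over 10 counts in each of the 6 libraries left for testing 6 of the 13 paralog strands, none from the X-linked cluster, and 1 passed, with 120 of 260 miRNAs passing in all, fewer because fewer were tested. With each library left out in turn, 4 to 6 paralog strands and 144 to 211 miRNAs passed. Library totals moved the median log2 fold change of all miRNAs by 0.20, and with it the summed level of miR-106b~25 to 0.24 and of the X-linked cluster to -2.20. The same setting reversed miR-106b-3p (0.091), miR-93-5p (0.053), miR-17-5p (0.072) and miR-20a-5p (0.033), none past the threshold, and miR-18a-5p and miR-19a-3p no longer passed. miR-19a-3p also did not pass with DESeq2, at -0.63 (adjusted p = 0.104), and with counts summed over rows, at -0.61 (adjusted p = 0.0556). limma-voom gave miR-92a-3p the sign opposite to edgeR's (-0.0049), with both fits near 0. Relative to the shift, neither sum moved beyond the spread of its replicates. With each library left out, log2 fold changes ranged from -0.20 to 0.83 for miR-93-3p, -0.42 to 0.068 for miR-92b-3p and -0.12 to 0.091 for miR-92a-3p. Differences in log2 ratio ranged from -0.056 to 0.013 for miR-93-5p over miR-17-5p, -0.61 to 0.083 for miR-92b-3p over miR-92a-3p, -0.34 to 0.061 for the arms of miR-106b and -0.85 to 1.20 for those of miR-363; none of these had passed a threshold, and the cause was not tested. The study describes 3 litters for both sample types, by which account the groups share litters. It does not say which libraries share one, and the main test did not pair them. The deviations of same-numbered libraries had a correlation of 0.083 across 487 miRNAs. In the 4 numbered libraries the replicate block gave 158 miRNAs and 6 paralog strands past the threshold, against 134 and 5 without it, where miR-25-5p was not past it in edgeR's quasi-likelihood test, at 0.93 (adjusted p = 0.09) against 0.93 with the replicate block (adjusted p = 0.035). miR-93-5p and miR-20a-5p were reversed in both fits, at 0.027 and 0.019 with the replicate block and 0.041 and 0.035 without. miR-18a-5p and miR-19a-3p did not pass in either fit, at -0.66 and -0.65 with the replicate block (adjusted p = 0.0525 and 0.0505) and -0.66 and -0.65 without (adjusted p = 0.104 and 0.0582). miR-106a-5p, miR-18b-5p, miR-363-5p, miR-93-3p and miR-92b-5p have few counts per library.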
